A study of Saccharomyces cerevisiae Sigma1278b with 62 samples.

Results

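The aminoacyl-tRNA synthetases of budding yeast were followed through ribosome footprint profiling of ribosomal protein mutants and of cells on a respiratory carbon source. The 35 open reading frames (ORFs) were chosen by name, as 21 synthetase genes that serve the cytosol and 14 that serve the mitochondrion, out of 5563 ORFs in the count tables. All 35 were measured, and all 35 were kept in every comparison by the filter on low counts, which asked for 128 reads summed over the footprint libraries compared and for as many over the RNA ones.

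Each synthetase joins 1 kind of amino acid to its tRNA, which lets the ribosome read the matching codons. Yeast mitochondria translate a handful of their own mRNAs, most of them for subunits of the respiratory chain and the ATP synthase, and they use synthetases that are made from nuclear genes and imported. Most amino acids therefore have separate cytosolic and mitochondrial enzymes, and respiration needs the mitochondrial ones. For some amino acids 1 gene supplies both compartments, among them ALA1 (alanine), GRS1 (glycine), HTS1 (histidine) and VAS1 (valine).

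The study asked how Asc1, the yeast counterpart of mammalian RACK1 on the small ribosomal subunit, affects translation, and how its loss compares with loss of other ribosomal proteins. It sequenced ribosome-protected footprints (FP) and fragmented total RNA from the same cell extracts, in 2 libraries of each kind per strain and medium. Translation efficiency (TE) is the FP value of an ORF over its total RNA value, and ∆TE is its log2 change. All strains are of the Sigma1278b background and grew to mid-log phase at 30 °C in rich medium with 2% glucose, except where glycerol is named.

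The mutants were asc1-M1X, in which an early codon of ASC1 was replaced so that no protein is made while the snoRNA in its intron is kept, and asc1-Null, the gene deletion (asc1∆ in the plots). Both were set against WT YWG25, as were asc1-D109Y (an amino acid replacement), rpl23b-Null and rpp1a-Null (deletions of genes for large-subunit proteins, rpl23b∆ and rpp1a∆ in the plots). These 5 comparisons thus share 2 WT FP and 2 WT total RNA libraries. The double replacement asc1-DE was prepared by poly(A) tailing of fragments, with WT libraries made the same way. By the study's account D109Y came from a genetic screen, and both the D109Y and DE proteins co-sedimented less with ribosomes in gradients. After crosslinking, both did co-sediment with polysomes. The deletions rps0b-Null and rps16b-Null (small-subunit proteins) came from the Sigma1278b deletion collection with the WT of that collection. In a further experiment asc1-M1X and WT were moved from glucose to 3% glycerol, which yeast can use only by respiration, and by the study's account were harvested 6 h later, before WT grew rapidly again, so glycerol here stands for cells adapting to it and not for steady growth. Ribo-Zero total RNA, depleted of rRNA and not selected for poly(A), was made from asc1-M1X and WT in glucose. The 2 replicates were separate isolates for asc1-M1X, asc1-Null, asc1-D109Y, rpl23b-Null and rpp1a-Null, and 1 isolate for WT and the other strains. The study calls its replicates biological. The p-values here measure the spread between these samples, which may be technical.

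Between 1713047 and 15322986 reads were counted per library (median 7160678, 56 libraries). ASC1 footprints were at a log2 change of -7.47 in asc1-M1X, -8.47 in asc1-Null and -6.24 in asc1-M1X in glycerol, each against its WT. Footprints of the deleted gene were at -7.78 for RPL23B, -8.20 for RPP1A, -7.75 for RPS0B and -8.11 for RPS16B, while the point alleles give no such check. The mutant Ribo-Zero libraries are titled asc1-Null, but carry the strain numbers of asc1-M1X. Their ASC1 total RNA was at -1.53 against WT, where poly(A)-selected asc1-M1X was at -0.76 and asc1-Null at -7.87, and they are treated here as asc1-M1X.

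In WT cells the medium separated the 2 sets in opposite directions. In glycerol, all 21 cytosolic synthetases were lower and all 14 mitochondrial ones higher than in glucose, in footprints and in total RNA alike (edgeR, adjusted p under 0.05). The background was large, because 37.7% of all ORFs tested were called lower and 38.9% higher in FP, with 43.4% and 42.0% in total RNA. The median log2 change in FP was -1.56 for the cytosolic and 1.97 for the mitochondrial set, and in total RNA -1.55 and 1.20, where all ORFs had medians of -0.02 and -0.04 as means of the replicate ratios. The glycerol and glucose libraries were separate experiments, so medium and experiment cannot be told apart.

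In RPKM (reads by length of the counted ORF and by library size), the cytosolic set had a median FP level of 163 in glycerol and 456 in glucose. The mitochondrial set had 49.9 in glycerol and 11.1 in glucose. The gap between the set medians was thus 3.27-fold in glycerol and 41.2-fold in glucose for FP, and 1.98-fold and 14.4-fold for total RNA. In glycerol the FP levels ran from 46.2 for MES1 (methionine) to 636 for GUS1 (glutamate) in the cytosolic set, and from 25.4 for ISM1 (isoleucine, YPL040C) to 127 for MSY1 (tyrosine) in the mitochondrial set, so the sets overlapped. In glucose the lowest cytosolic level, 157 for CRS1 (cysteine), lay above the highest mitochondrial level, 25.1 for MSW1 (tryptophan).

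**Figure D1:**
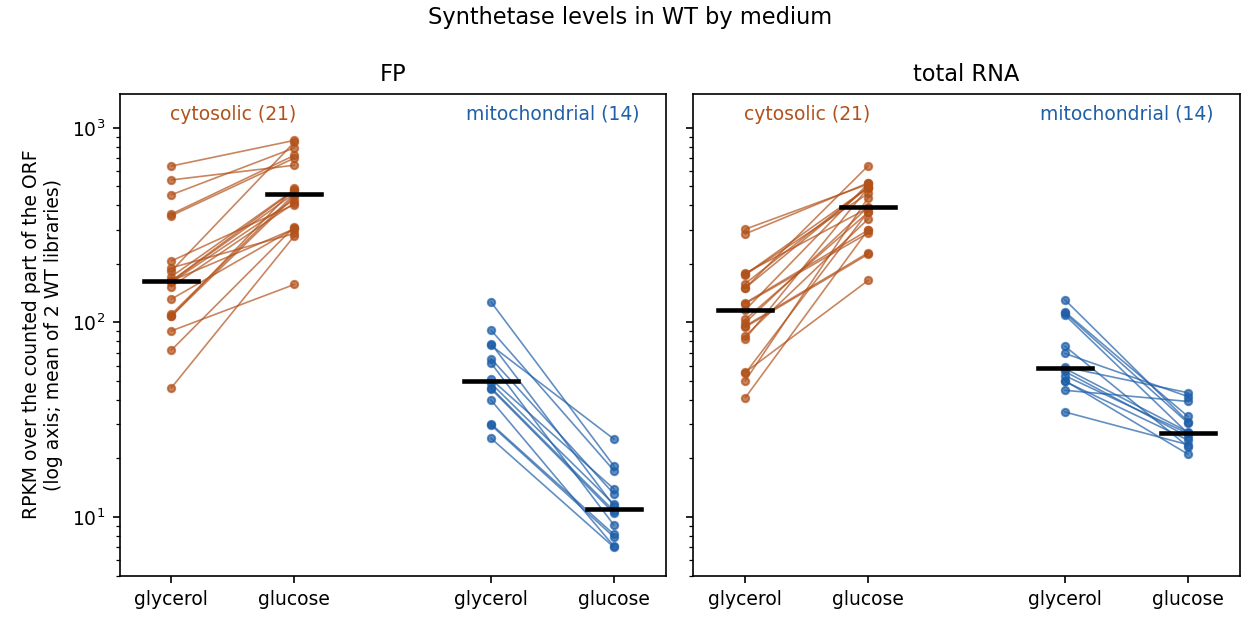
Levels of 21 cytosolic and 14 mitochondrial synthetases in WT cells, in RPKM on a log axis, for FP and for total RNA, with glycerol left of glucose; each line is 1 gene (mean of 2 libraries) and black bars are set medians. The sets overlap in glycerol and stand apart in glucose, with FP medians of 163 and 49.9 in glycerol and of 456 and 11.1 in glucose for the cytosolic and mitochondrial sets.

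As a share of all counted reads, the 14 mitochondrial synthetases took 0.110% (95% Wilson interval 0.108 to 0.113) and 0.145% (0.143 to 0.147) of FP reads in the glycerol WT libraries. In the glucose WT libraries they took 0.0263% (0.0252 to 0.0275) and 0.0271% (0.0260 to 0.0282). The 21 cytosolic synthetases took 0.835% and 0.897% in glycerol, against 1.99% and 2.01% in glucose. These intervals cover counting error only, and the 2 glycerol libraries differed by more than it.

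For 15 amino acids or subunit pairs, a cytosolic gene can be set beside its mitochondrial counterpart within a library. In glycerol the cytosolic FP level was 1.10 to 16.2 times the mitochondrial one in replicate 1 (median 3.24) and 0.827 to 15.8 times in replicate 2 (median 2.77). In glucose the ratio ran from 11.9 to 140 (median 57.9) in replicate 1 and from 12.7 to 108 (median 54.9) in replicate 2. In replicate 1 in glycerol the pair closest to parity was that of tryptophan, WRS1 and MSW1, at 1.10 and 0.827 over the 2 glycerol replicates and 11.9 and 12.7 in glucose. The tyrosine enzymes TYS1 and MSY1, nearer to parity in replicate 2, stood at 1.57 and 1.06 in glycerol and at 23.6 and 23.2 in glucose. In total RNA, 3 and 4 of the 15 pairs were below 1 in the 2 glycerol replicates, among them MES1 and MSM1 (methionine) at 0.740 and 0.678.

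Among single genes, MES1 (YGR264C) was lowest in glycerol relative to glucose in FP, with 815 and 817 normalised counts in glycerol and 5611 and 5472 in glucose (log2 change -2.74, SE 0.08, edgeR adjusted p = 9.93e-07). CDC60 (YPL160W), the leucine enzyme that also takes part in amino acid sensing by TORC1, had 1135 and 1182 total RNA counts in glycerol, against 9507 and 9138 in glucose (-3.02, adjusted p = 7.31e-08). MSY1 (YPL097W) had 1135 and 1748 FP counts in glycerol and 226 and 240 in glucose (2.65, SE 0.21, adjusted p = 4.55e-05). MSK1 (lysine, YNL073W) had 706 and 950 in glycerol and 146 and 128 in glucose (2.63, adjusted p = 1.72e-05). In none of these did the 2 media overlap. The smallest FP changes of the 2 sets were those of DPS1 (aspartate, YLL018C, -0.40) and MSW1 (YDR268W, 1.46), and between the 2 ends lay KRS1 (lysine, YDR037W, -2.35), CDC60 (-2.33) and WRS1 (-2.25) near the low end and GUS1 (-0.59) and ALA1 (-0.73) near DPS1, with MSD1 (2.63) and MSE1 (2.34), the mitochondrial aspartate and glutamate enzymes, near the high end. NAM2 (YLR382C), the mitochondrial leucine enzyme, which is also needed for splicing of mitochondrial introns, was the member whose total RNA moved least. It had 861 and 824 counts in glycerol against 691 and 672 in glucose (0.29, edgeR adjusted p = 0.0208), while its footprints were at 936 and 1018 in glycerol and 271 and 242 in glucose.

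The set medians of TE stood apart in both media. Within WT libraries the median log2 TE was 0.72 in glycerol and 0.18 in glucose for the cytosolic set, and -0.37 in glycerol and -1.24 in glucose for the mitochondrial set, with -0.52 and -0.62 for all ORFs. These log2 TE values are scaled to library size alone and ∆TE by TMM, so their differences between media do not equal ∆TE. Over all ORFs, the median TE change between media was 0.08 with median-ratio scaling and 0.36 with library size alone. Between media, TE was higher in glycerol for 8 cytosolic and 8 mitochondrial synthetases and lower for 3 cytosolic ones, where 39.9% of all ORFs were called higher and 34.0% lower. MSK1 had a log2 TE of -0.10 and 0.21 in glycerol and of -2.15 and -2.37 in glucose (∆TE 2.09, edgeR adjusted p = 1.28e-05), and NAM2 had -0.10 and 0.18 in glycerol and -1.81 and -1.93 in glucose (1.67, adjusted p = 2.77e-06). DPS1 had the highest cytosolic ∆TE of the called ones, with 1.56 and 1.67 in glycerol and 0.34 and 0.42 in glucose (0.98, edgeR adjusted p = 4.92e-05). WRS1 moved the other way, with -0.79 and -0.82 in glycerol against 0.05 and 0.06 in glucose (-1.11, edgeR adjusted p = 2.89e-05). With the culture as a block, 27 rather than 19 synthetases were called in ∆TE (11 higher and 5 lower cytosolic, 10 higher and 1 lower mitochondrial), where 43.5% of all ORFs were called higher and 37.0% lower under the same block. Leaving out WT glucose replicate 1 or 2 brought the count to 12 or 13, and each such fit leaves 1 sample in an arm, which is assumed to vary like the others.

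Coding length ran beside these changes. Over the 14 mitochondrial genes, longer ORFs had lower total RNA changes (Spearman rho -0.79) and higher ∆TE (0.70), and over the 21 cytosolic genes rho was -0.48 and 0.47. Over all 5074 ORFs with a value it was -0.61 for total RNA and 0.63 for ∆TE, while for FP it was -0.06 in the cytosolic set, -0.04 in the mitochondrial set and -0.15 over all ORFs. These points share libraries and are a description. The coding lengths had medians of 2004 nt for the cytosolic set, 1669.5 nt for the mitochondrial set and 1230 nt for all ORFs. With the length trend of each library removed, an alternative chosen after seeing the data, the calls in total RNA were 18 cytosolic lower and 14 mitochondrial higher, but the cytosolic ∆TE calls became 2 higher and 14 lower (median -0.48) and the mitochondrial ones 5 higher and 1 lower (median 0.21). No share of all ORFs called under this alternative is given here, so these counts describe the members alone. Within the sets, the direction of the cytosolic ∆TE depends on how length is treated. That of FP and total RNA does not, except for GUS1 total RNA, whose change was just above 0 with the trend removed.

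**Figure D2:**
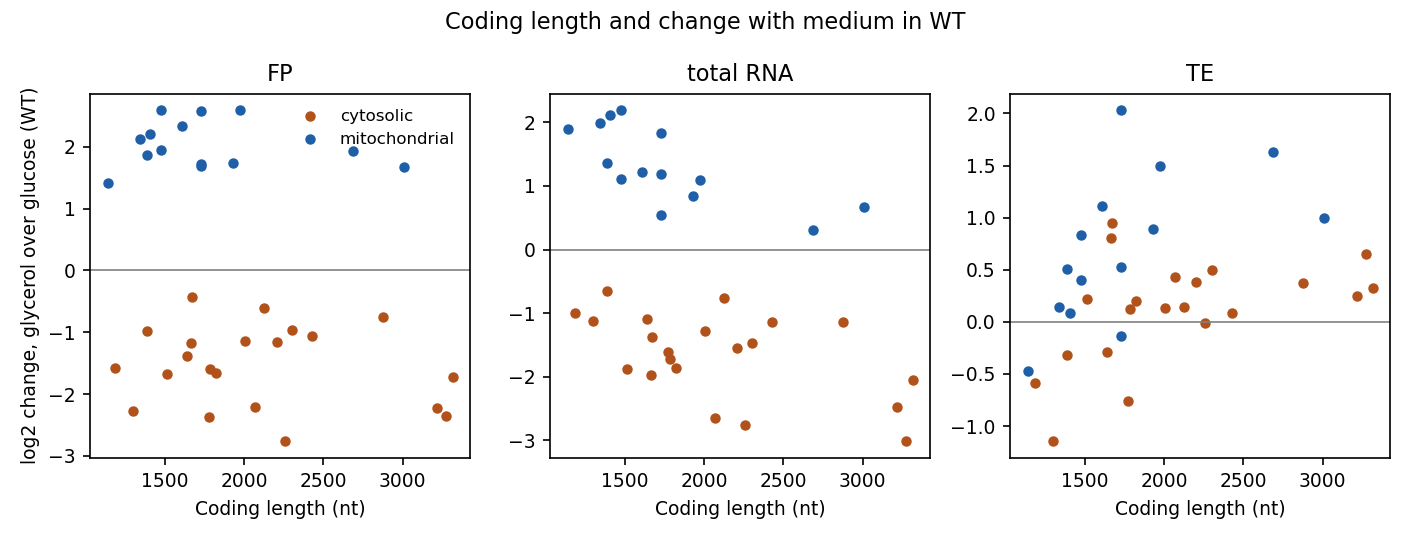
Log2 change between WT in glycerol and WT in glucose against coding length in nucleotides, for FP, total RNA and TE; each point is 1 synthetase, coloured by set (21 cytosolic, 14 mitochondrial). Total RNA changes fall and ∆TE rises with length in both sets, with rho of -0.79 and 0.70 over the mitochondrial genes, while FP shows little slope.

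In glycerol, footprints of the whole mitochondrial set were lower where Asc1 was lost. By the study's account, polysomes of asc1-M1X came back only in part after the shift, and its growth in glycerol stopped after a few doublings. The strains may thus have been at different stages of adaptation, and strain and stage cannot be told apart. In asc1-M1X, all 14 mitochondrial and 12 of 21 cytosolic synthetases were lower in FP than in WT in glycerol (edgeR, adjusted p under 0.05), and none was higher, where 22.5% of all ORFs were called lower and 18.7% higher. The median log2 change was -0.91 for the mitochondrial and -0.38 for the cytosolic set, against -0.0011 for all ORFs. All 14 mitochondrial genes and 18 cytosolic ones had both asc1-M1X libraries below both WT libraries, which held for 37.9% of all ORFs. The mitochondrial set took 0.0686% (95% Wilson interval 0.0665 to 0.0706) and 0.0807% (0.0789 to 0.0826) of FP reads in asc1-M1X in glycerol, less than the 0.110% and 0.145% of WT, but still above the 0.0263% and 0.0271% of WT in glucose.

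MSY1 showed the largest change, with 409 and 529 normalised FP counts in asc1-M1X against 1135 and 1748 in WT (-1.54, SE 0.21, edgeR adjusted p = 0.00217). MST1 (mitochondrial threonine, YKL194C) had 179 and 240 in asc1-M1X against 402 and 628 in WT (-1.22, SE 0.22, adjusted p = 0.00544). NAM2 had 395 and 483 in asc1-M1X against 936 and 1018 in WT (-1.07, SE 0.12, adjusted p = 0.00136), and ISM1 had 266 and 288 against 500 and 709 (-1.05, SE 0.17, adjusted p = 0.00316). The 2 strains did not overlap in any of these, and the higher asc1-M1X library of MSY1 was still well under the lower WT library. The other 10 mitochondrial genes ran without a break from -0.97 for MSW1, -0.96 for MSR1 and -0.95 for MSK1 through MSF1 (phenylalanine, -0.87), MSD1 (aspartate, -0.86), SLM5 (asparagine, -0.72) and MSE1 (glutamate, -0.71) to AIM10 (proline, -0.58), MSM1 (-0.53) and DIA4 (serine, -0.41). DIA4, at 475 and 477 in asc1-M1X against 574 and 755 in WT, was closest to the threshold (edgeR adjusted p = 0.0467).

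In the cytosolic set the largest change was that of DED81 (asparagine, YHR019C), with 2669 and 2872 FP counts in asc1-M1X against 4514 and 4747 in WT (-0.67, SE 0.11, edgeR adjusted p = 0.0043). VAS1 had 2546 and 2812 in asc1-M1X against 4126 and 4468 in WT (-0.61, SE 0.12, adjusted p = 0.00672). FRS1, the beta subunit of the cytosolic phenylalanine enzyme, had 1232 and 1447 against 2068 and 2169 (-0.59, adjusted p = 0.00722). SES1 (serine) had 2846 and 3317 against 4602 and 4996 (-0.56, adjusted p = 0.0119). The other called cytosolic genes were HTS1, CRS1, GRS1, ALA1, YHR020W (proline), GUS1, THS1 (threonine) and GLN4 (glutamine), at -0.55 to -0.38. The partner subunit FRS2 was not called, with 1664 and 1898 counts in asc1-M1X and 1868 and 1911 in WT (-0.01, edgeR adjusted p = 0.954), and neither were CDC60 (0.21, adjusted p = 0.196), KRS1 (0.13, adjusted p = 0.475) and DPS1 (-0.16, adjusted p = 0.324).

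**Figure D3:**
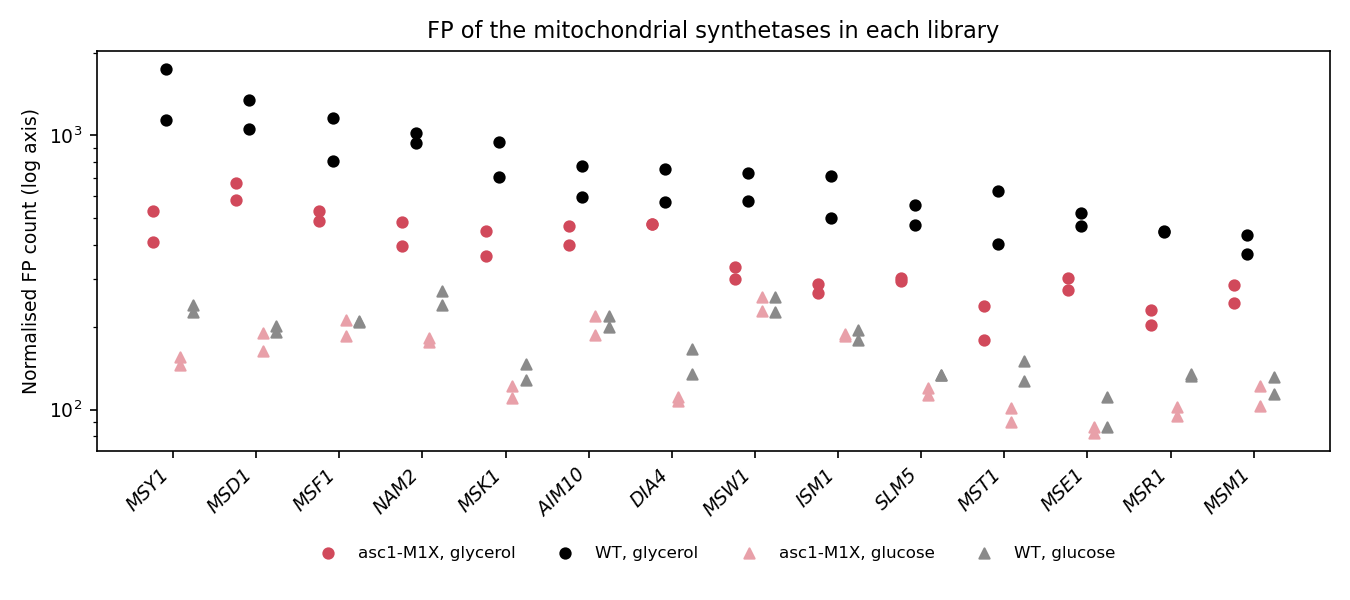
Normalised FP counts (log axis) of the 14 mitochondrial synthetases in each library, with asc1-M1X then WT in glycerol and asc1-M1X then WT in glucose; genes are ordered by their level in WT in glycerol. In glycerol both asc1-M1X libraries lie below both WT libraries for all 14 genes; in glucose the strains overlap for some.

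Total RNA of the same cultures was lower for 9 mitochondrial and 2 cytosolic synthetases in asc1-M1X in glycerol (edgeR, adjusted p under 0.05), where 8.36% of all ORFs were called lower. The median change was -0.51 for the mitochondrial and -0.30 for the cytosolic set, and 0.02 for all ORFs. MSY1 had 606 and 687 total RNA counts in asc1-M1X against 1238 and 1400 in WT (-0.95, SE 0.14, adjusted p = 0.00124), MST1 283 and 278 against 399 and 551 (-0.68, adjusted p = 0.0158), and MSK1 433 and 428 against 650 and 755 (-0.63, adjusted p = 0.00801). MSR1, the mitochondrial arginine enzyme, had 560 and 590 in asc1-M1X and 844 and 1011 in WT (-0.61, adjusted p = 0.0118). The cytosolic calls were HTS1, with 945 and 983 in asc1-M1X against 1356 and 1456 in WT (-0.47, edgeR adjusted p = 0.026), and GRS1, with 1556 and 1814 against 2391 and 2493 (-0.46, adjusted p = 0.0499). Without asc1-M1X replicate 1 the calls numbered 16 in FP and 4 in total RNA, and without WT replicate 2 they numbered 17 and 4, with 11 mitochondrial FP calls in each case, whereas without WT replicate 1 the total RNA calls were 15. Scaled to library size alone, with all-ORF medians up by 0.15 in FP and 0.16 in total RNA, the FP calls were 11 mitochondrial and 6 cytosolic and the total RNA calls 4, all mitochondrial. Over all ORFs, higher ones then made up 65.4% of FP and 74.8% of total RNA calls, against 45.3% and 53.4% with the main scaling.

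All 14 mitochondrial ∆TE values were below 0 in asc1-M1X in glycerol (median -0.43, against -0.08 for the cytosolic set and -0.05 for all ORFs), yet none was called by edgeR or DESeq2, with 6 at an unadjusted edgeR p under 0.05. The background was 0.216% of all ORFs called in either direction. FP and total RNA of 1 number came from 1 extract, and with that culture as a block 6 mitochondrial synthetases were called lower in ∆TE, where 7.06% of all ORFs were under the same block. These were MSY1 (-0.58, edgeR adjusted p = 0.00277), MSD1 (-0.54), MST1 (-0.53), NAM2 (-0.53), ISM1 (-0.52) and MSW1 (-0.47). The largest cytosolic ∆TE, that of GUS1, was -0.28 (edgeR adjusted p = 0.53 without the block).

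Whether the effect of asc1-M1X differed between media was tested as an interaction, the asc1-M1X over WT change in glycerol minus that in glucose. It was below 0 and called in FP for 13 cytosolic and 9 mitochondrial synthetases (edgeR, adjusted p under 0.05), and above 0 for none, where 20.1% of all ORFs were called below 0. The median was -0.46 for the cytosolic and -0.72 for the mitochondrial set, against -0.12 for all ORFs. ISM1 had the largest value (-1.15, edgeR adjusted p = 0.00701), as its glucose FP counts of 188 and 186 in asc1-M1X and 180 and 195 in WT overlapped. Among cytosolic genes SES1 had the largest (-0.81, adjusted p = 0.00335), with 10119 and 10758 FP counts in asc1-M1X and 8996 and 9833 in WT in glucose. In total RNA MSY1 (-0.69, adjusted p = 0.0205) and MSR1 (-0.56) were called below 0, where 5.71% of ORFs were. In ∆TE none was called by edgeR or DESeq2 (12 at an unadjusted edgeR p under 0.05, with 0.711% of ORFs called), and 9 were with the culture block, namely 7 cytosolic and 2 mitochondrial, all below 0, where 7.73% of ORFs were. The total RNA count was 7, all mitochondrial, without WT glycerol replicate 1, and 0 without either WT glucose replicate or asc1-M1X glucose replicate 2. The FP count was 3 without either WT glucose replicate, 8 without asc1-M1X glucose replicate 2 and 13 without asc1-M1X glucose replicate 1.

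In glucose the Asc1 nulls showed smaller changes, in both directions among cytosolic synthetases. Relative to WT, asc1-M1X had 6 cytosolic synthetases higher and 2 lower in FP, and 5 mitochondrial ones lower (edgeR, adjusted p under 0.05), where 26.8% of all ORFs were called higher and 25.4% lower. Over both sets together, synthetases were thus called less often in each direction than ORFs in general. This did not hold within each set, as 5 of 14 mitochondrial genes were lower and 6 of 21 cytosolic genes higher, both above those shares. The differences from those shares were not tested. DPS1 had 12050 and 12436 normalised counts in asc1-M1X against 9294 and 9206 in WT (0.41, SE 0.04, edgeR adjusted p = 6.26e-06), and KRS1 had 15542 and 15934 against 12979 and 12882 (0.29, adjusted p = 9.61e-05). TYS1 had 4967 and 5178 in asc1-M1X against 4183 and 4335 in WT (0.26, adjusted p = 0.000655), and CDC60 16354 and 16831 against 14202 and 14100 (0.24, adjusted p = 0.000488). DED81, also the largest of the cytosolic falls in glycerol, had 9013 and 9074 in asc1-M1X against 10654 and 10030 in WT (-0.19, adjusted p = 0.00459). Without asc1-M1X replicate 2 the FP calls over both sets were 7.

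Among mitochondrial synthetases MSY1 again had the largest FP change, at 158 and 146 counts in asc1-M1X against 225 and 237 in WT (-0.60, SE 0.11, edgeR adjusted p = 0.000822). MST1 had 102 and 90.6 in asc1-M1X against 127 and 148 in WT (-0.51, adjusted p = 0.0126), and NAM2 184 and 176 against 269 and 238 (-0.48, adjusted p = 0.00302). MSY1, MST1 and NAM2 were thus below WT in both media, though at low counts in glucose. Set medians in FP were -0.0048 for the cytosolic and -0.19 for the mitochondrial set. Scaled to library size alone, the median over all ORFs moved up by 0.16, and the same medians were 0.14 and -0.04, with 13 cytosolic synthetases higher, none lower and 2 mitochondrial ones lower. The calls over all ORFs moved the same way, as higher ones made up 72.3% of them, against 51.3% with the main scaling.

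The deletion asc1-Null, set against the same WT libraries, had 4 cytosolic synthetases higher, 2 lower and 3 mitochondrial ones lower in FP, with 24.9% of all ORFs called higher and 23.9% lower. Here too, the 2 sets together were called less often in each direction than ORFs in general. DPS1 had 12294 and 11961 counts in asc1-Null against 9294 and 9206 in WT (0.40, edgeR adjusted p = 3.36e-05), and KRS1 had 15502 and 15446 against 12979 and 12882 (0.27, adjusted p = 0.00068). MSY1 had 148 and 140 in asc1-Null against 225 and 237 in WT (-0.67, SE 0.12, edgeR adjusted p = 0.000502). DPS1 and KRS1 were thus above WT, and MSY1 below it, in every library of asc1-M1X and of asc1-Null, although the 2 comparisons share the WT libraries and are not independent. Scaled to library size alone, asc1-Null had 10 cytosolic synthetases higher and none lower, with 1 mitochondrial one higher and 1 lower. Higher ones then made up 73.7% of the FP calls over all ORFs, against 51.1% with the main scaling.

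Total RNA in glucose was lower for 7 cytosolic and 2 mitochondrial synthetases in asc1-M1X and for 5 cytosolic and 1 mitochondrial in asc1-Null, and higher for none, where 17.7% and 14.6% of all ORFs were called lower. YHR020W had 3910 and 3864 counts in asc1-M1X and 3867 and 3806 in asc1-Null, against 5252 and 5171 in WT (-0.40 and -0.42, edgeR adjusted p = 0.000575 and 0.00194). ILS1 (isoleucine) had 8728 and 8727 in asc1-M1X and 8653 and 8571 in asc1-Null, against 11005 and 10917 in WT (-0.31 in asc1-M1X, edgeR adjusted p = 0.00204). NAM2 was the mitochondrial call in asc1-Null, with 561 and 545 against 734 and 713 (-0.37, edgeR adjusted p = 0.00713). The cytosolic median of -0.10 in asc1-M1X and -0.12 in asc1-Null was 0.0051 and -0.0016 when libraries were scaled to their size alone, so the direction of the total RNA set as a whole depends on the scaling. Without asc1-M1X replicate 1 or 2 the total RNA calls of asc1-M1X were 2 or 3, and in asc1-Null each replicate left out in turn gave 3.

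TE was higher for 8 cytosolic synthetases in asc1-M1X and for 3 in asc1-Null, where 11.2% and 7.20% of all ORFs were called higher, and the cytosolic median was 0.17 and 0.18. MES1 and CDC60 had the largest values in asc1-M1X, both 0.38 (edgeR adjusted p = 0.00344 and 0.00219). MES1 total RNA was 3643 and 3900 in asc1-M1X against 4666 and 4550 in WT, so its footprints were high relative to a lowered poly(A)-selected message. In Ribo-Zero RNA the MES1 change was not called (-0.09, edgeR adjusted p = 0.15), and neither was its ∆TE over that RNA (0.21, edgeR adjusted p = 0.066). No mitochondrial ∆TE was called in asc1-M1X (the largest was MSR1, -0.39, adjusted p = 0.0641), while in asc1-Null MSY1 was called lower (-0.52, edgeR adjusted p = 0.0436), where 4.82% of ORFs were. With the culture block the ∆TE calls were 10, all cytosolic and higher, in asc1-M1X and 13 in asc1-Null, namely 11 cytosolic higher, ISM1 higher (0.41) and MSY1 lower (-0.54). Under the same block 16.7% of all ORFs were called higher in asc1-M1X, and 15.4% higher and 14.6% lower in asc1-Null. Leaving out either asc1-M1X replicate left 1 ∆TE call, and in asc1-Null there was at most 1, whichever replicate was left out. Over the 21 cytosolic genes, coding length had a rho of -0.63 with the asc1-M1X change in total RNA and 0.37 with ∆TE, against -0.25 and 0.26 over all ORFs.

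**Figure D4:**
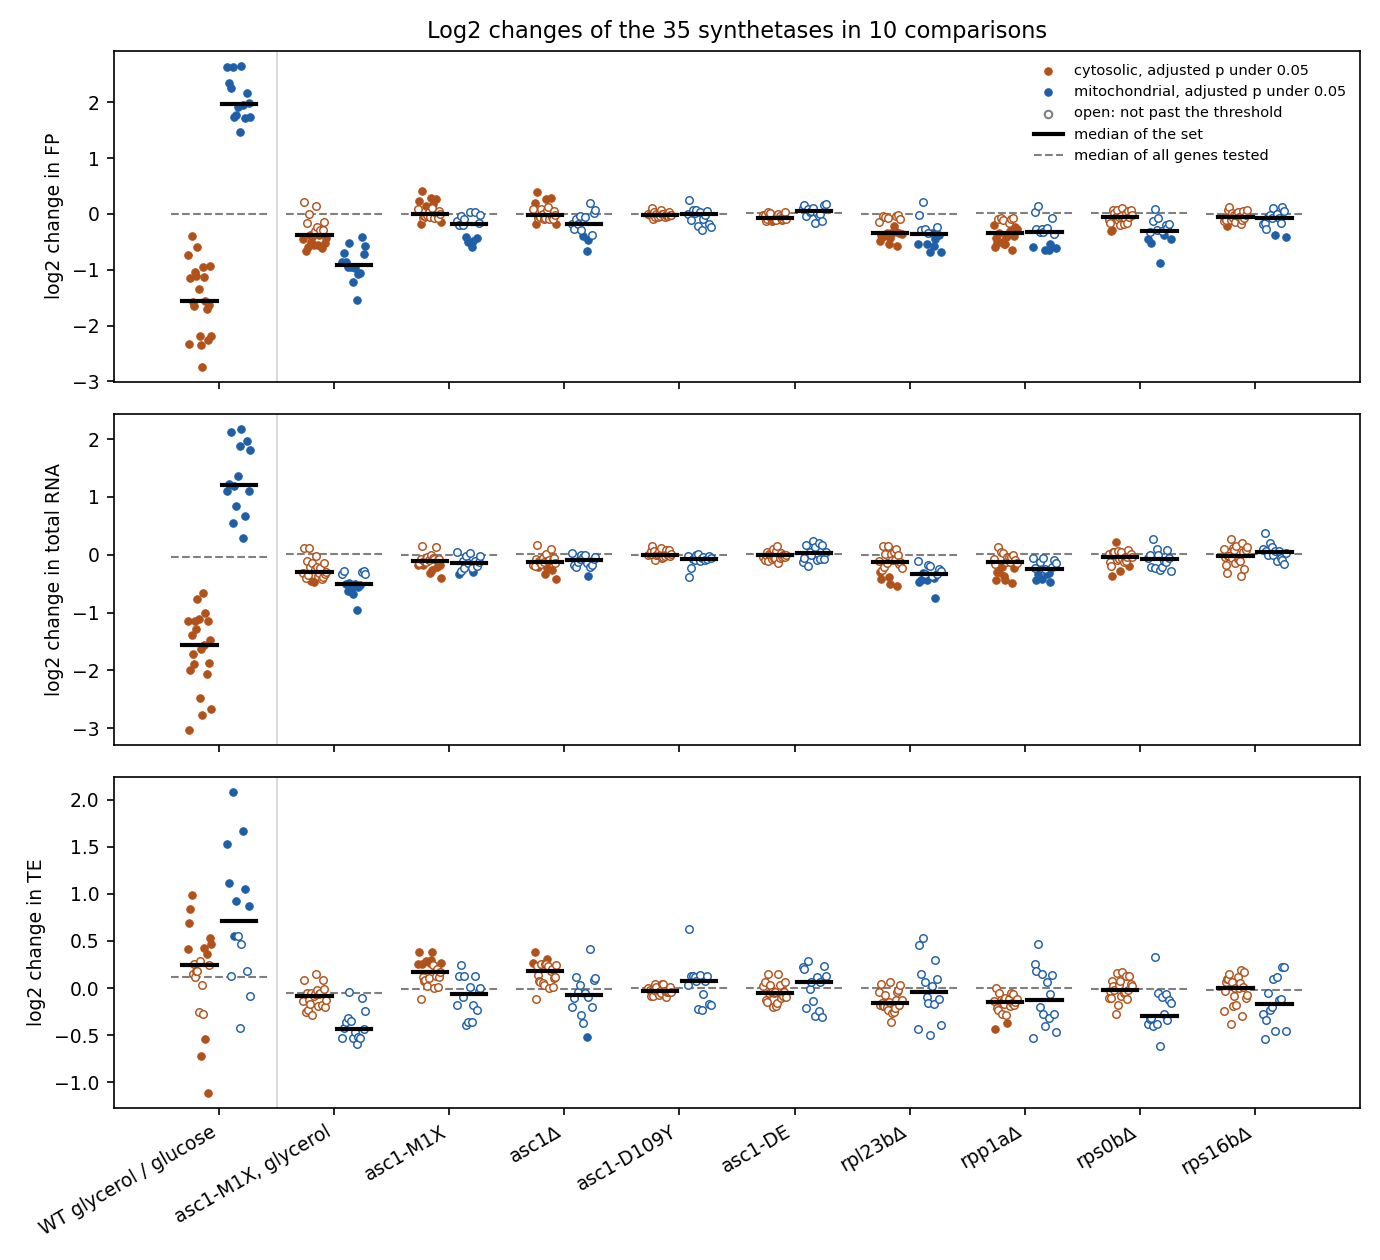
Log2 change of every synthetase in 10 comparisons of mutant over WT or of glycerol over glucose, in panels for FP, total RNA and TE; filled points passed the edgeR threshold (adjusted p under 0.05), black bars are set medians and dashed grey bars the median of all ORFs. The medium comparison moves the sets apart (FP medians -1.56 and 1.97), asc1-M1X in glycerol lowers both, and asc1-D109Y and asc1-DE hold no filled point.

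For the cytosolic set, asc1-M1X was also compared with WT in total RNA that was not selected for poly(A), in libraries prepared separately, so RNA selection and library preparation cannot be told apart. In Ribo-Zero total RNA, 8 cytosolic synthetases were higher and 1 lower in asc1-M1X than in WT, and 3 mitochondrial ones lower (edgeR, adjusted p under 0.05), with 19.1% of all ORFs called higher and 18.3% lower. DPS1 had 3223 and 3352 counts in asc1-M1X against 2237 and 2586 in WT (0.47, SE 0.05, edgeR adjusted p = 1.42e-19), and KRS1 4540 and 4627 against 3526 and 3683 (0.37, adjusted p = 2.13e-13). In poly(A)-selected RNA KRS1 overlapped between strains, with 5791 and 5923 in asc1-M1X and 6102 and 5799 in WT, while DPS1 had 6136 and 6066 in asc1-M1X and 5688 and 5401 in WT. YHR020W had 2834 and 2962 in asc1-M1X against 3224 and 3184 in WT in Ribo-Zero RNA (-0.13, edgeR adjusted p = 0.0261). MSY1 was lower in Ribo-Zero RNA too, with 103 and 112 in asc1-M1X against 135 and 168 in WT (-0.45, adjusted p = 0.00481).

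A test of the difference between the 2 selections, chosen after seeing the data, called 5 cytosolic synthetases, each with a higher asc1-M1X over WT change in Ribo-Zero than in poly(A)-selected RNA, where 1.20% of all ORFs were called in that direction. They were CDC60 (0.42, edgeR adjusted p = 0.00525), KRS1 (0.39, adjusted p = 0.00925), ALA1 (0.31), YHR020W (0.30) and ILS1 (0.28). All 21 cytosolic values were above 0 (median 0.21), and no mitochondrial gene was called (8 below and 6 above 0, none at an unadjusted p under 0.05). The calls numbered 0 without either asc1-M1X Ribo-Zero replicate or WT Ribo-Zero replicate 2, 1 without WT Ribo-Zero replicate 1, and 2 without either poly(A)-selected asc1-M1X replicate. Without asc1-M1X replicate 2 the Ribo-Zero total RNA calls over both sets were 7. Set over Ribo-Zero RNA, ∆TE in asc1-M1X was called for DED81 alone (-0.22), with a cytosolic median of -0.01, where 4.48% of all ORFs were called lower, so none of the 8 cytosolic ∆TE calls made over poly(A)-selected RNA was made over Ribo-Zero RNA. Length had a rho of -0.22 with the Ribo-Zero change over the cytosolic genes and of -0.02 over all ORFs. With the poly(A)-selected change it was -0.63 and -0.25. With the length trend removed, the test of RNA selection had 2 calls, and no all-ORF median of that difference is given.

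**Figure D5:**
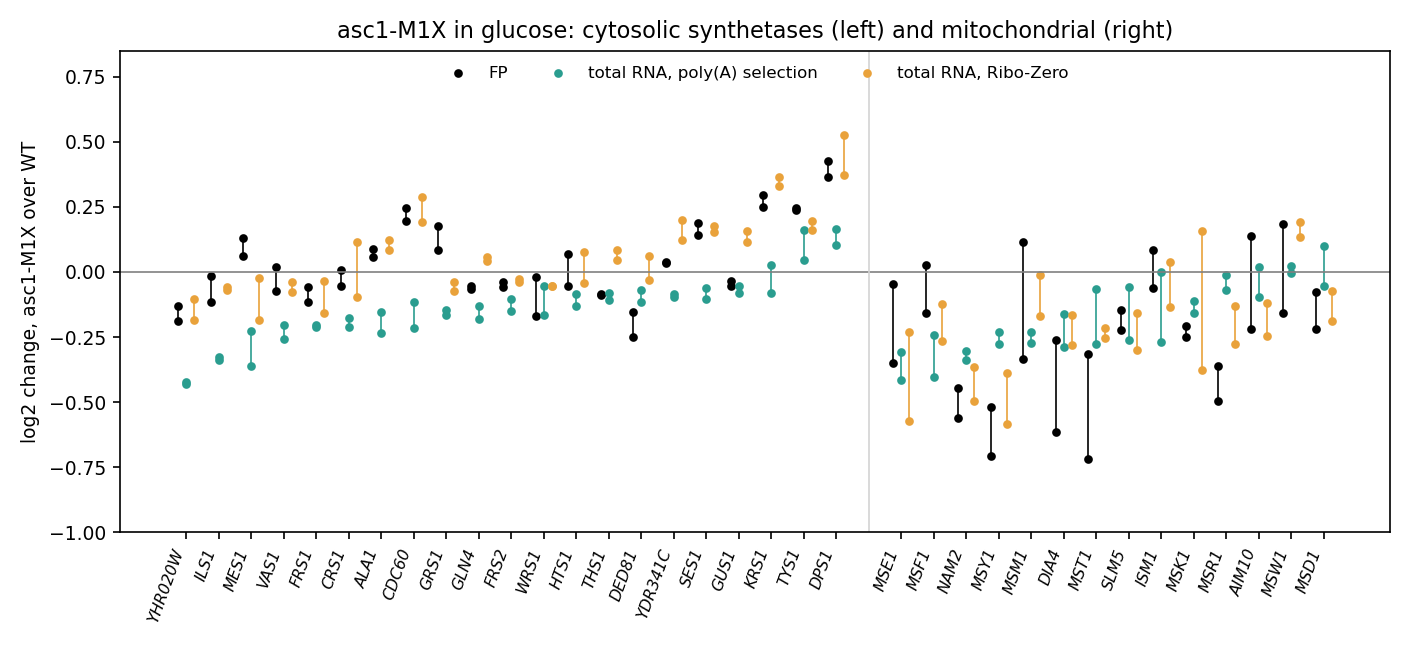
Log2 change of asc1-M1X over WT in glucose in each replicate for FP, poly(A)-selected total RNA and Ribo-Zero total RNA, with cytosolic synthetases on the left and mitochondrial ones on the right. The cytosolic values sit higher in Ribo-Zero than in poly(A)-selected RNA, with a median difference of 0.21, while the mitochondrial values do not separate.

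In the 2 alleles that replace residues of Asc1, no synthetase passed the threshold without a replicate block. In asc1-D109Y no member was called in FP, total RNA or TE by edgeR or DESeq2, with 2, 2 and 1 at an unadjusted edgeR p under 0.05, and 0.985%, 0.370% and 0% of all ORFs were called. MSY1 had 183 and 193 FP counts in asc1-D109Y against 225 and 237 in WT (-0.29, edgeR adjusted p = 0.414), and the largest cytosolic FP change was that of DPS1 (0.11, adjusted p = 0.501). In asc1-DE none was called by either tool and none had an unadjusted edgeR p under 0.05, where 0.0213% of all ORFs were called in FP and 0% in total RNA and TE. Its largest FP changes were -0.13 for DED81 and 0.17 for AIM10, both with an edgeR adjusted p of 0.995. The total RNA libraries of that experiment held 1713047 to 2446857 reads, and its shallowest was the shallowest of all 56.

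In the large-subunit deletions, footprints of both sets were lower. In rpl23b-Null, 14 cytosolic and 8 mitochondrial synthetases were lower in FP than in WT, and in rpp1a-Null 15 and 5, with none higher (edgeR, adjusted p under 0.05), where 24.8% and 20.4% of all ORFs were called lower. The cytosolic median was -0.35 in both and the mitochondrial one -0.36 in rpl23b-Null and -0.33 in rpp1a-Null. VAS1 had the largest cytosolic change in both, with 9216 and 9597 counts in rpl23b-Null and 8803 and 9020 in rpp1a-Null, against 14152 and 13875 in WT (-0.58 and -0.65, edgeR adjusted p = 3.94e-07 and 3.88e-05). MSW1 had 156 and 140 in rpl23b-Null and 159 and 142 in rpp1a-Null, against 256 and 225 in WT (-0.69 and -0.65, edgeR adjusted p = 0.000327 and 0.00385). In asc1-M1X the same gene overlapped with WT, at 231 and 257 counts.

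For DPS1 and KRS1, as for some other cytosolic synthetases, these deletions lay on the other side of WT from the Asc1 nulls. DPS1 had 7020 and 6896 FP counts in rpl23b-Null and 6516 and 6371 in rpp1a-Null, against 9294 and 9206 in WT, and KRS1 had 10372 and 9936 in rpl23b-Null and 9813 and 9534 in rpp1a-Null, against 12979 and 12882. Both genes were thus below WT in every library of these deletions and above it in every library of asc1-M1X and asc1-Null. This was not particular to them. CDC60, SES1, GRS1, MES1, ALA1, TYS1 and YDR341C had FP changes of the same signs in both replicates of each strain, and the rest of the cytosolic set did not. No share of all ORFs with this pattern is given. Some of these changes were small, as in rpl23b-Null TYS1 was at -0.03 and -0.02 and ALA1 at -0.11 and -0.16. Library-size scaling moved the all-ORF FP median of rpl23b-Null up by 0.17, more than these values, so such signs depend on the scaling. MSY1 had 193 and 171 in rpl23b-Null and 188 and 196 in rpp1a-Null against 225 and 237 in WT. NAM2 had 175 and 166 in rpl23b-Null and 170 and 150 in rpp1a-Null against 269 and 238 in WT (-0.64 in rpp1a-Null, edgeR adjusted p = 0.00378), and AIM10 122 and 140 in rpl23b-Null against 218 and 198 (-0.68, adjusted p = 0.0006). The difference between these strains and the Asc1 nulls was not tested.

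Total RNA was lower for 5 cytosolic and 6 mitochondrial synthetases in rpl23b-Null and for 8 and 6 in rpp1a-Null, where 12.4% and 15.2% of all ORFs were called lower. ISM1 had 323 and 252 counts in rpl23b-Null and 358 and 338 in rpp1a-Null, against 522 and 454 in WT (-0.75 and -0.48, edgeR adjusted p = 0.00648 and 0.00956). VAS1 had 8120 and 8176 in rpl23b-Null and 8609 and 8176 in rpp1a-Null, against 11882 and 11827 in WT (-0.54 and -0.49, edgeR adjusted p = 0.00272 and 0.00199). Leaving out either WT replicate brought the total RNA calls of rpl23b-Null to 3, and leaving out WT replicate 1 or rpp1a-Null replicate 2 brought those of rpp1a-Null to 6 or 7. Scaled to library size alone, with all-ORF medians up by 0.17 and 0.16 in FP, the FP calls were 1 cytosolic higher and 12 lower, and 1 mitochondrial higher and 4 lower, in rpl23b-Null, and 12 and 5 lower in rpp1a-Null. Over all ORFs, higher ones then made up 75.7% and 76.1% of the FP calls, against 49.8% and 50.7% with the main scaling.

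TE of cytosolic synthetases leaned down in both deletions, with a median of -0.16 in rpl23b-Null and -0.15 in rpp1a-Null. In rpl23b-Null none was called by edgeR or DESeq2, with 7 at an unadjusted edgeR p under 0.05 and 2.62% of all ORFs called. The largest were -0.36 for KRS1 (edgeR adjusted p = 0.108) and 0.53 for MSK1 (adjusted p = 0.106). In rpp1a-Null 2 cytosolic genes were lower, where 2.56% of ORFs were called lower, with CDC60 at -0.43 (edgeR adjusted p = 0.019), and neither call held when any 1 replicate was left out. With the culture block 10 were called in rpp1a-Null, 7 of them cytosolic and lower, with MSK1 higher (0.47) and MSD1 and AIM10 lower (-0.55 and -0.44), where 9.94% of all ORFs were called higher and 11.2% lower under the same block.

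In the deletion collection, MSW1 had the largest FP change in rps0b-Null and AIM10 in rps16b-Null. In rps0b-Null, 2 cytosolic and 5 mitochondrial synthetases were lower in FP than in the WT of that collection (edgeR, adjusted p under 0.05), with 11.1% of all ORFs called lower, and in rps16b-Null 1 and 2 were, with 4.74%. MSW1 had 174 and 185 counts in rps0b-Null and 247 and 257 in rps16b-Null, against 326 and 334 in WT (-0.88, SE 0.12, and -0.39, edgeR adjusted p = 0.000359 and 0.0372). AIM10 had 216 and 202 in rps0b-Null and 212 and 215 in rps16b-Null, against 269 and 306 in WT (-0.42 in rps16b-Null, adjusted p = 0.0422). DPS1 had 8569 and 9838 in rps0b-Null and 9557 and 9677 in rps16b-Null, against 11369 and 11149 in WT (-0.23 in rps16b-Null, edgeR adjusted p = 0.0435). Set medians in FP were -0.30 for the mitochondrial and -0.05 for the cytosolic set in rps0b-Null, and -0.07 and -0.06 in rps16b-Null. The count in rps0b-Null was 3 without WT replicate 1 or rps0b-Null replicate 2 and 4 without WT replicate 2, and that in rps16b-Null was 0 without either of its own replicates and 9 without WT replicate 2.

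Total RNA in rps0b-Null was higher for 1 and lower for 3 cytosolic synthetases, where 12.0% of all ORFs were called higher and 12.4% lower, and no mitochondrial one was called (the largest was AIM10, -0.29, edgeR adjusted p = 0.0507). DPS1 had 2163 and 2196 counts in rps0b-Null against 2743 and 2936 in WT (-0.37, edgeR adjusted p = 0.000324), and GLN4 had 3731 and 3704 against 3084 and 3345 (0.22, adjusted p = 0.0177). In rps16b-Null no total RNA call was made by edgeR or DESeq2 (3 at an unadjusted edgeR p under 0.05, with 0.414% of ORFs called), but 6 were without rps16b-Null replicate 2. No ∆TE was called by either tool in rps0b-Null or rps16b-Null, with 3 and 4 at an unadjusted edgeR p under 0.05 and 1.43% and 0.145% of ORFs called. MSW1 had the largest ∆TE in rps0b-Null (-0.62, edgeR adjusted p = 0.0645).

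Of the genes with no mitochondrial counterpart in the list, ALA1, GRS1, HTS1 and VAS1 are known to make both enzymes, and all moved with the cytosolic set when the medium changed. ALA1 had 4196 and 4478 FP counts in glycerol WT and 7401 and 7279 in glucose WT. GRS1 had 2937 and 3522 in glycerol and 7017 and 7180 in glucose, and since it has a near copy, GRS2, and reads were counted only where unique, its level is uncertain. HTS1 had 1612 and 1724 in glycerol and 4381 and 4294 in glucose, and VAS1 had 4126 and 4468 against 14263 and 14071. All of them were lower in glycerol, where the 14 genes for mitochondrial enzymes alone were higher. Counts per ORF cannot tell the mitochondrial from the cytosolic form.

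Of 7 genes listed as charging partners, 4 were called higher and 3 lower in FP in glycerol WT against glucose WT, where 38.9% of all ORFs were called higher and 37.7% lower. The list includes GRS2, the near copy of GRS1, whose level is uncertain for the same reason. In glycerol against glucose WT, FP of HER2, PET112 and GTF1, the subunits of the mitochondrial amidotransferase that turns misacylated glutamate into glutamine on its tRNA, was higher (1.79, 2.23 and 1.70 log2, edgeR adjusted p = 0.000169, 4.97e-06 and 1.57e-05). ARC1, the cofactor that binds the cytosolic MES1 and GUS1 enzymes, was lower (-0.51, edgeR adjusted p = 0.000591). In asc1-M1X in glycerol, PET112 was lower (-0.53, adjusted p = 0.00571), GTF1 was higher (0.48, adjusted p = 0.00649), and HER2 (-0.21, adjusted p = 0.322) and ARC1 (-0.30, adjusted p = 0.0784) were not called by edgeR. Of 28 genes for tRNA maturation and modification, 5 were higher and 15 lower in FP in glycerol WT, beside the same 38.9% and 37.7% of all ORFs, and the higher ones were led by MTO1 (2.57), which modifies mitochondrial tRNAs, and RPM2 (1.98), the protein of mitochondrial RNase P. In asc1-M1X in glycerol 1 of the 28 was higher and 4 were lower, beside 18.7% and 22.5% of all ORFs, among them MTO1 (-1.16) and SLM3 (-0.68), another modifier of mitochondrial tRNAs. Of the same 28 genes, 11 were higher and 3 lower in FP in rpl23b-Null, 10 and 2 in rpp1a-Null, 8 and 0 in rps0b-Null, and 2 and 0 in rps16b-Null, where 49.4%, 41.5%, 19.7% and 8.24% of all ORFs were called in either direction. Higher ones made up 49.8%, 50.7%, 43.6% and 42.5% of those calls over all ORFs.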

How the data were processed

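The authors aligned FP and total RNA reads of each library to the Sigma1278b genome with TopHat and deposited raw counts of uniquely mapping reads per ORF, leaving out the first 30 codons. They pooled replicate 1 FP libraries of the 6 main glucose strains with a second preparation. Their deposited RPKM, scaled counts and fold changes were not used. Total RNA was poly(A)-selected, except the Ribo-Zero libraries, whose ∆TE uses the FP libraries of the main experiment.

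The synthetases and the lists of charging partners and tRNA genes were chosen with earlier results of these data known. Changes were tested with edgeR 4.0.16 (R 4.3.3; quasi-likelihood test, TMM scaling within library type, all ORFs with at least 128 reads over FP and 128 over total RNA libraries, Benjamini-Hochberg adjustment over all of them, threshold 0.05). ∆TE is the interaction of library type and strain, fitted over both types. Printed normalised counts are counts over median-ratio size factors, and levels per kilobase leave out the first 90 nt. Printed log2 TE values of single media are scaled to library size alone. Values per library are given for up to 4 called members of each set with the largest change per comparison and measure, or the largest uncalled one, and for ALA1, GRS1, HTS1 and VAS1; further ones were chosen after their values were seen. Alternatives were median-ratio and library-size scaling, no filter, DESeq2 1.42.0, a replicate block, each replicate left out and, chosen after seeing the data, removal of the length trend and the test of RNA selection.

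FP and total RNA of 1 number came from 1 extract by the study's methods, and their deviations from the group means correlated at 0.14 to 0.53 in 10 pairs. Mutant and WT libraries share only a number. ORF names and lengths come from RefSeq (R64), where 5560 of 5563 matched. The FP, total RNA and ∆TE tests of asc1-M1X against WT in glucose were run on simulated counts, drawn independently for each library. That check did not cover the tests of media or of RNA selection, the blocks or the fits with a replicate left out.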

Additional observations from a re-analysis of the deposited data

Results flagged for a closer look

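The following values stood out because the effect of asc1-M1X differed between media, or between RNA selections, by a test of the difference itself (edgeR, adjusted p under 0.05). They are log2 differences, with no explanation tested. In FP, the asc1-M1X over WT change in glycerol minus that in glucose was -0.62 for ALA1, -0.55 for DED81, -0.64 for DPS1, -0.58 for FRS1, -0.40 for GLN4, -0.73 for GRS1, -0.46 for GUS1, -0.64 for HTS1, -0.42 for MES1, -0.81 for SES1, -0.61 for TYS1, -0.67 for VAS1 and -0.59 for CRS1 in the cytosolic set. In the mitochondrial set it was -0.80 for MSD1, -0.90 for MSF1, -0.82 for MSK1, -0.62 for MSR1, -1.08 for MSW1, -1.02 for MSY1, -0.66 for NAM2, -1.15 for ISM1 and -0.63 for SLM5. In total RNA it was -0.56 for MSR1 and -0.69 for MSY1. Medium and experiment cannot be told apart in these values.

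Between RNA selections in glucose, the asc1-M1X over WT change in Ribo-Zero total RNA minus that in poly(A)-selected total RNA was 0.31 for ALA1, 0.42 for CDC60, 0.28 for ILS1, 0.39 for KRS1 and 0.30 for YHR020W.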

How the results depend on the processing

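Over single synthetases that were called, DESeq2 kept 257 of 300 calls, median-ratio size factors 293, no low-count filter 294, library-size scaling 228 and removal of the length trend 271, and leaving out 1 replicate kept 963 of 1316. The replicate block kept 285 of 286. Directions reversed in 8 cases. With the length trend removed, WT in glycerol over glucose gave 0.028 for GUS1 total RNA, and in ∆TE -0.48 for ALA1, -0.26 for CDC60, -0.31 for THS1, -0.59 for VAS1, -0.23 for CRS1 and -0.20 for YHR020W. With library-size scaling, YHR020W FP in asc1-M1X in glucose was 0.0014.

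The counts of called synthetases moved as follows. The cause was not tested, and no share of all ORFs stands beside these counts. Library-size scaling gave 4 total RNA calls in asc1-M1X, 4 in rpl23b-Null and 8 in rpp1a-Null, 7 ∆TE calls in asc1-Null, 17 FP and 4 total RNA calls in asc1-M1X in glycerol and 2 ∆TE calls over Ribo-Zero RNA. DESeq2 gave 5 total RNA calls in asc1-M1X, 9 in rpp1a-Null and 7 in Ribo-Zero RNA, 4 FP calls in rps0b-Null and 1 in rps16b-Null, and 2 ∆TE calls in asc1-Null and 0 over Ribo-Zero RNA, as median-ratio size factors did. Removal of the length trend gave 17 total RNA calls in asc1-M1X in glycerol, 4 in the medium by strain test, 1 ∆TE call in rpp1a-Null and 2 over Ribo-Zero RNA. The test of RNA selection had 2 calls with median-ratio size factors, library-size scaling, no filter or the length trend removed.

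Mutant and WT libraries shared a number only, and their deviations correlated at 0.012 to 0.63, over 0.1 in 13 of 15 cases. With that number as a replicate block, total RNA had 17 calls in asc1-M1X, 12 in asc1-Null, 3 in asc1-D109Y and 17 in rpl23b-Null, FP had 16 in asc1-Null, and the test of RNA selection had 9. The share of all ORFs called under this block is not given here, so these counts describe the members alone. With the culture as the replicate block, ∆TE had 13 calls in asc1-Null, 10 in rpp1a-Null, 6 in asc1-M1X in glycerol, 4 over Ribo-Zero RNA and 9 in the medium by strain test. No paired analysis was possible because the WT columns carry no usable number in the deletion-collection experiment.

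Leaving out 1 replicate gave 7 to 13 FP, 2 to 8 total RNA and 1 to 6 ∆TE calls in asc1-M1X, 7 to 9, 3 and 0 to 1 in asc1-Null, 18 to 21, 3 to 16 and 0 to 1 in rpl23b-Null, 17 to 22, 6 to 12 and 0 in rpp1a-Null, 3 to 6 FP and 3 to 6 total RNA calls in rps0b-Null, and 0 to 9, 0 to 6 and 0 to 2 in rps16b-Null. In glycerol it gave 16 to 24 FP, 4 to 15 total RNA and 0 ∆TE calls in asc1-M1X, 35, 34 to 35 and 12 to 25 for WT against glucose, and 3 to 26, 0 to 7 and 0 in the medium by strain test. Ribo-Zero total RNA had 7 to 12 calls and ∆TE over it 0 to 1, the test of RNA selection 0 to 6, and asc1-D109Y and asc1-DE 0.

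Library-size scaling also moved the share of higher calls among all calls. With it against TMM, that share was 72.3% against 51.3% in FP, 78.2% against 50.8% in total RNA and 65.9% against 55.8% in ∆TE of asc1-M1X, and 73.7% against 51.1% in FP and 81.7% against 53.4% in total RNA of asc1-Null. It was 75.7% against 49.8%, 71.0% against 48.7% and 43.8% against 23.4% for FP, total RNA and ∆TE in rpl23b-Null, and 76.1% against 50.7%, 73.0% against 46.1% and 55.1% against 33.9% in rpp1a-Null. It was 56.3% against 43.6% in FP and 41.5% against 24.6% in ∆TE of rps0b-Null, and 46.2% against 60.0% in total RNA of rps16b-Null. In glycerol it was 65.4% against 45.3%, 74.8% against 53.4% and 75.0% against 63.6% in asc1-M1X, and 38.9% against 26.3% in FP of the medium by strain test. It was 67.4% against 51.0% in total RNA and 77.5% against 52.1% in ∆TE for Ribo-Zero, and 82.9% against 95.5% in the test of RNA selection.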
